A study of Mus musculus with 6 samples.

Results

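The genes described here are 10 markers of the cartilage and bone lineages, Sox9, Acan, Runx2, Alpl, Comp, Sp7, Ibsp, Spp1, Matn1 and Chad, measured in mouse embryo fibroblasts with unstable or stable chromosomes. Every probe set that the array annotation assigns to exactly 1 of these symbols was taken. That gave 10 probe sets for 8 of the 10 genes, among 20380 probe sets with 1 symbol and 22626 in all. Sox9 and Ibsp had 2 probe sets each, and Runx2 and Spp1 had none under this rule and were not analysed here. Each of 6 fibroblast lines was hybridised to 1 array. BubR1 restrains the cell from dividing until its chromosomes are attached, and CDC20 activates the ubiquitin ligase that starts anaphase. The 3 unstable lines were 2 BubR1H/H lines, hypomorphic for BubR1 and wild type for CDC20, and 1 CDC20AAA/AAA line, labelled hypomorphic for CDC20 and wild type for BubR1. The 3 stable lines, 2 BubR1+/+ and 1 CDC20+/+, were wild type at both loci. All lines were grown for 2 passages under 1 set of conditions, the ages of the embryos are not given in the sources used here, and the CDC20 mutation is represented by 1 line only. The title numbers 9515, 9938 and 10074 are each carried by 1 unstable and 1 stable line, here called a pair. The BubR1 lines make up pairs 9515 and 9938, and pair 10074 is that of the CDC20 lines. Values are log2 expression after GCRMA. A value under log2 4 is called low here and taken as too low to be measured well, so that no fold is given against it.

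Cartilage forms when mesenchymal cells condense under the control of the transcription factor Sox9 and then secrete a matrix of type II collagen, aggrecan and small adaptor proteins. Bone-forming osteoblasts depend on Runx2 and then on Sp7, also called osterix, and lay down a collagen matrix that they mineralise with the help of alkaline phosphatase and acidic phosphoproteins such as bone sialoprotein. Embryo fibroblast cultures are mixed mesenchymal populations that include cells from limb and trunk tissue.

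Fibroblast markers were high on average in all cultures. Macrophage markers were present too, at a mean level of 7.25 to 9.93 in unstable and 7.40 to 9.74 in stable lines. All 13 measured fibroblast markers reached log2 4 on at least 3 arrays, and their mean level was 11.68 to 11.81 in unstable lines and 11.52 to 11.94 in stable lines; they include vimentin (Vim) and a type I collagen gene (Col1a2). Bub1b, which encodes BubR1, measured 6.15, 6.43 and 7.00 in unstable lines 9515, 9938 and 10074, against 7.81, 8.51 and 7.61 in the stable lines. The 3 unstable lines were all below the 3 stable ones, the CDC20 line included. Both lines of pair 9938 had a female pattern, with Xist at 10.70 in the unstable and 11.16 in the stable line, and the other 4 lines a male one. Array medians lay between 6.156 and 6.197, and with 6 arrays the precision of each value is limited by their number. Whether each line was grown from its own embryo is not stated in the labels, and p-values cover only the spread among these 6 lines, which may be technical.

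Sox9, the regulator of cartilage fate, was the only member at or above log2 4 on all 6 arrays, by both of its probe sets. Probe set 1451538_at measured 7.60, 7.99 and 8.22 in unstable lines 9515, 9938 and 10074, against 7.56, 8.46 and 8.22 in the stable lines. Both lines of pair 9515 were the lowest 2 of the 6, and the groups overlapped. Sox9 averaged 7.94 ± 0.31 in unstable and 8.08 ± 0.46 in stable lines (SD, n = 3 each). The unstable minus stable difference was 0.04 in pair 9515, -0.47 in pair 9938 and -0.003 in pair 10074, so that pair 9938 had by far the widest gap. Probe set 1424950_at, with values nearer the floor, measured 4.45, 4.28 and 4.40 in unstable lines, against 4.19, 4.62 and 4.82 in stable lines. Its pair differences of 0.26, -0.34 and -0.41 had the same signs as those of the first probe set, but differed from them in size in pairs 9515 and 10074.

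Acan encodes aggrecan, the large proteoglycan that holds water in cartilage. It measured 6.11, 3.34 and 2.90 in unstable lines 9515, 9938 and 10074, against 6.34, 4.36 and 3.39 in the stable lines. Both lines of pair 9515 stood above all the others, the stable line of pair 9938 was just over the floor, and 3 lines were low. The unstable line was lower than the stable line of the same number in every pair, by -0.23, -1.02 and -0.49, although in pairs 9938 and 10074 at least 1 of the lines compared was low. Acan averaged 4.12 ± 1.74 in unstable and 4.70 ± 1.505 in stable lines (SD, n = 3 each), and the groups overlapped. The mean over pair 9515 was 6.23, which is at least 4.68-fold over the floor of log2 4, while the means of pairs 9938 and 10074, 3.85 and 3.14, were low.

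The stretch before the Acan start site is shown because Acan is the member with the widest spread between lines. Those of Ibsp and Chad follow for comparison, as 2 of the 4 members that were low on all 6 arrays. Each line gives the 250 bases upstream of the annotated start, 5′ to 3′ on the gene's strand, from RefSeq on GRCm38.p6. Capitals mark matches, on both strands, to AACAAT or ACAAAG (SOX cores), TATAAA (the TATA box), GGGCGG (GC box) or TGTGGT (Runt core). The windows are chr7:79052976-79053225 for Acan, chr5:104299037-104299286 for Ibsp and chr11:94564797-94565046 for Chad, all on the plus strand.
Acan: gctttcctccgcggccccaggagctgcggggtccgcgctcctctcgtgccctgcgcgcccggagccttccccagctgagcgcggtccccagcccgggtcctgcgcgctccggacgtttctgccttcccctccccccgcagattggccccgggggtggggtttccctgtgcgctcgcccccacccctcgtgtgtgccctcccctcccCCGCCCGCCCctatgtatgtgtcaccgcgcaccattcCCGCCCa
Ibsp: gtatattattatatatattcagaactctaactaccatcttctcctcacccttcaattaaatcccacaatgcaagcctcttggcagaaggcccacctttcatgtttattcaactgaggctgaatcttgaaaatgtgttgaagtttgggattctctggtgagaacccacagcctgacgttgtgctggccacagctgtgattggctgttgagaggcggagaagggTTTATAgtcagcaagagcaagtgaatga
Chad: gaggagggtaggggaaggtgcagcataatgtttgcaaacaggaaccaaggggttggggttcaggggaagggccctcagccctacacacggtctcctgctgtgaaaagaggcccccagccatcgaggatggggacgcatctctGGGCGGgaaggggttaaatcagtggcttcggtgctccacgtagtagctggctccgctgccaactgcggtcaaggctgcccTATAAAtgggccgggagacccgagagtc
The Acan window had a GC content of 74.4%, 26 CpG dinucleotides and 3 GC boxes, of which 2 overlap, and no match to the TATA box, to the SOX cores or to the Runt core. The Ibsp window had a GC content of 43.6%, 2 CpG dinucleotides and 1 TATA box match, on the minus strand and starting 28 bases before the start site. The Chad window had a GC content of 60.4%, a TATA box match at the same distance and 1 GC box. Over 32851 such windows the median GC content was 52.4%. A GC box was found in 32.7% of them, a TATA box in 12.4%, AACAAT in 9.42%, ACAAAG in 16.5% and the Runt core in 14.0%. These matches describe the letters only. Of the 8 measured members, 5 had a window in the RefSeq table. The windows of Alpl and Matn1, also low on all 6 arrays, are not shown. The 2 Alpl windows held 1 and 2 ACAAAG matches and the Matn1 window 1 Runt core, beside GC or TATA box matches.

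The other cartilage matrix members were low on most or all arrays. Comp encodes cartilage oligomeric matrix protein, a pentameric adaptor that is also made in tendon. Comp measured 4.13, 2.60 and 2.48 in unstable lines 9515, 9938 and 10074, against 3.89, 2.36 and 2.83 in the stable lines. As with Acan, the 2 lines of pair 9515 were the highest, and they lie on either side of the floor. The group means of Comp were 3.07 ± 0.92 in unstable and 3.03 ± 0.78 in stable lines (SD, n = 3 each). Matn1, which encodes the matrix adaptor matrilin 1, lay at 2.04, 2.64 and 2.17 in unstable lines, against 2.11, 2.22 and 2.27 in stable lines. Chad, which encodes the leucine-rich cartilage protein chondroadherin, lay at 1.99, 1.86 and 1.93 in unstable lines, against 2.01, 1.94 and 1.84 in stable lines. Neither gene came near the floor in any line, so differences between their values have no order.

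Among the bone genes, Sp7 was the only member with values at the floor. Sp7 encodes the osteoblast transcription factor osterix and measured 3.23, 3.41 and 4.03 in unstable lines 9515, 9938 and 10074, against 3.58, 3.68 and 4.68 in the stable lines. The highest 2 values were those of the CDC20 pair, which are also the only 2 over the floor. In each pair the unstable line had the lower Sp7 value, by -0.35, -0.27 and -0.66, with group means of 3.56 ± 0.42 in unstable and 3.98 ± 0.61 in stable lines (SD, n = 3 each). Only in pair 10074 were both lines above the floor. Alpl, the gene of tissue-nonspecific alkaline phosphatase, measured 2.95, 2.62 and 2.60 in unstable lines, against 2.65, 2.89 and 2.61 in stable lines. Ibsp, the gene of bone sialoprotein, ranged from 2.40 to 2.84 by probe set 1417485_at and from 1.32 to 2.08 by 1417484_at. All of these Alpl and Ibsp values were low. In all, 5 of the 10 probe sets were low on every array, 3 reached the floor on some arrays and 2 on all 6.

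**Figure D1:**
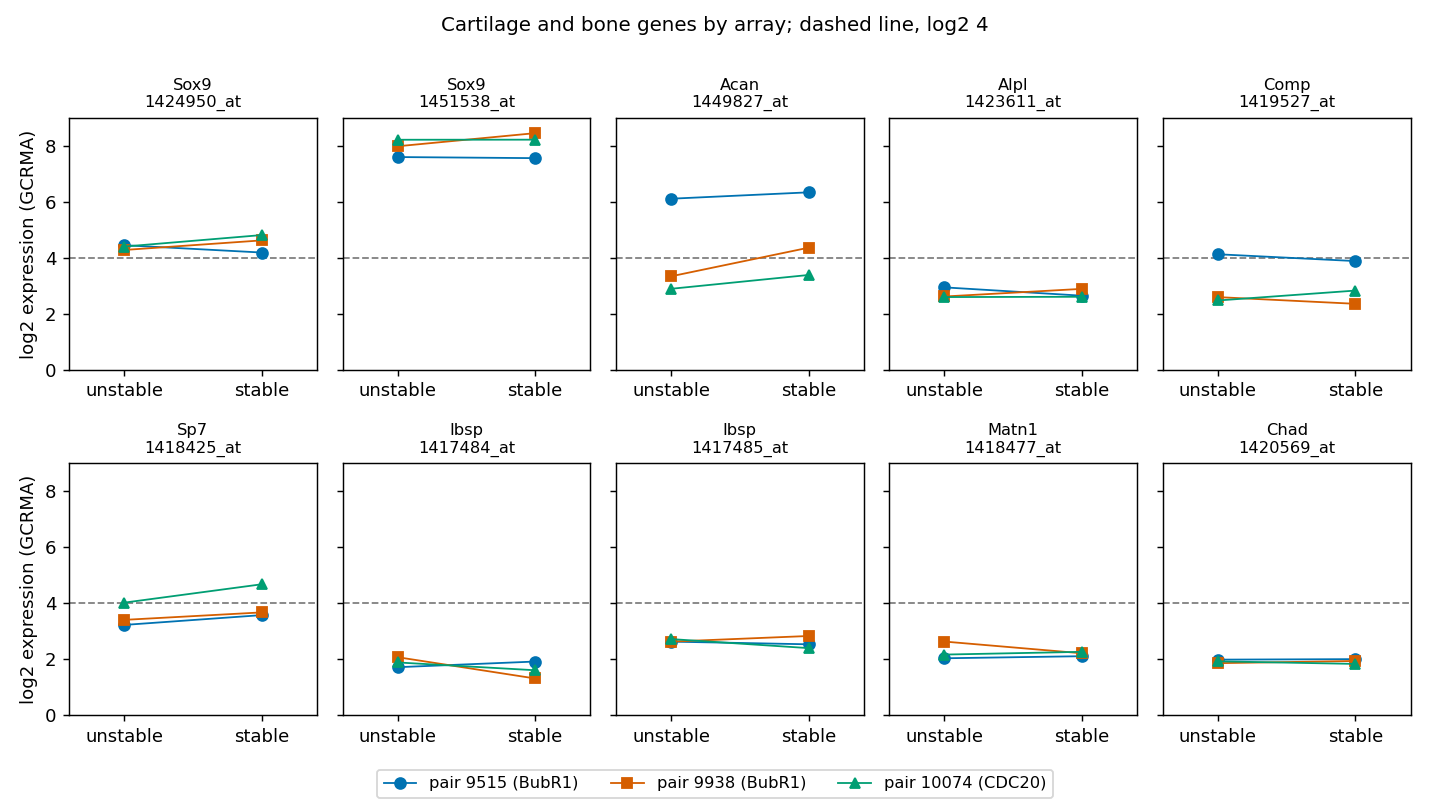
Log2 expression (GCRMA, y axis) of the 10 probe sets in the unstable (left) and stable (right) line of each pair, joined by a line; the dashed line marks log2 4. Pair 9515 stands apart from the other pairs for Acan, at 6.11 in the unstable and 6.34 in the stable line, and Alpl, Ibsp, Matn1 and Chad stay under the dashed line in every array.

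The series was designed to compare unstable with stable lines, and neither Sox9 nor Acan, the members that could be tested, passed the threshold. A gene was tested if it reached log2 4 on at least 3 of the 6 arrays, which 2 of the 8 measured members did. Acan only did so through both lines of pair 9515 and 1 line of pair 9938. The unstable minus stable difference was -0.14 (SE 0.27) for Sox9 and -0.58 (SE 1.08) for Acan on the log2 scale, with adjusted p = 0.999 for each by limma. Over all 8382 genes tested, 0 (0%) passed an adjusted p of 0.05, with or without the pair number as a block, and 359 (4.28%) had an unadjusted p under that value by limma without the block and 1019 (12.2%) with it. The 359 were made up of 113 genes higher (1.35%) and 246 genes lower (2.93%) in unstable lines. Neither Sox9 (unadjusted p = 0.615 by limma) nor Acan (unadjusted p = 0.610) was among them. With the pair number as a block, Acan had SE 0.17, unadjusted p = 0.0184 and adjusted p = 0.325 by limma, and Sox9 SE 0.13, unadjusted p = 0.318 and adjusted p = 0.701. With single lines left out, which breaks a pair, the difference lay between -0.40 and 0.04 for Sox9 and between -1.58 and 0.24 for Acan. Sox9 was above 0 without the unstable line of pair 9515 (0.02) or the stable line of pair 9938 (0.04). Acan was above 0 without the stable line of pair 9515 (0.24) or the unstable line of pair 10074 (0.03), and the -1.58 was without the unstable line of pair 9515. With whole pairs left out, Acan stayed below 0, at -0.76 without pair 9515, -0.36 without pair 9938 and -0.63 without pair 10074. Sox9 was at -0.24, 0.02 and -0.21 without the same pairs.

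The 6 members not tested had differences of -0.43 for Sp7, 0.07 for Ibsp, 0.08 for Matn1, 0.04 for Comp, 0.005 for Alpl and -0.001 for Chad. When all 12393 genes were tested, low ones included, each had adjusted p = 0.999 by limma. With the pair number as a block, Sp7 had unadjusted p = 0.00964 and adjusted p = 0.32 by limma, with 4 of its 6 values low. The other 5 had unadjusted p from 0.552 to 0.988 by limma with the block. In 0 of the 10 probe sets did the unstable and stable lines fail to overlap, where 3.54% of tested genes lay wholly higher and 6.41% wholly lower in unstable lines. Acan and Sp7 were the 2 probe sets lower in all 3 pairs and 0 were higher in all 3, beside 19.3% of tested genes lower and 16.9% higher in all 3 pairs. Sp7 is not among the genes behind those shares, since it was not tested.

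**Figure D2:**
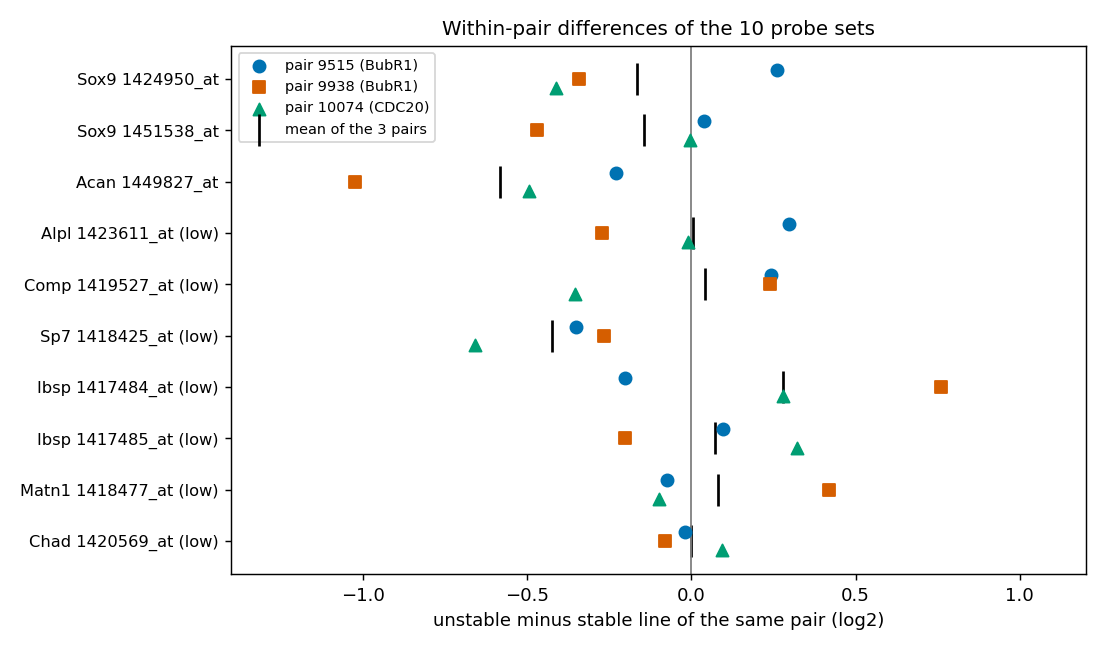
Unstable minus stable difference (log2, x axis) within each pair for the 10 probe sets (rows), with a tick at the mean of the 3 pairs; rows marked low belong to genes at log2 4 on fewer than 3 arrays. The points of most rows lie on both sides of 0, and the 3 Acan points run from -1.02 to -0.23.

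Within the BubR1 lines the difference between 2 BubR1H/H and 2 BubR1+/+ lines was -0.21 (SE 0.37) for Sox9 and -0.63 (SE 1.26) for Acan, with adjusted p = 1 for each by limma and 0 of 8382 genes (0%) past the threshold. By limma 264 of the genes tested (3.15%) had an unadjusted p under 0.05. The BubR1 difference minus the CDC20 difference was -0.21 (SE 0.64) for Sox9 and -0.13 (SE 2.19) for Acan. In that contrast 0 of 8382 genes (0%) passed and 133 (1.59%) had an unadjusted p under 0.05 by limma. The CDC20 difference rests on 1 line against 1 and was assumed to vary like the BubR1 groups. The wide SE of Acan in each of these fits includes the gap between pair 9515 and the other pairs.

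For Acan the spread between pairs was wider than that within them. With values under log2 4 set to 4, its highest and lowest pair means were at least 2.23 apart on the log2 scale. The largest unstable to stable gap within a pair was 0.36 on the same scale, which is also shortened by that step. As measured, the range of pair means was 3.09 and the largest gap 1.02, in pair 9938, whose unstable line was low. The median range of pair means over the 8382 tested genes, set to the floor in the same way, was 0.27. For Sox9 probe set 1451538_at the range was 0.64, which 14.3% of genes exceeded, against a largest gap of 0.47 within a pair. For the other Sox9 probe set the order was turned, at 0.29 between pairs and 0.41 within a pair, and Alpl, Ibsp, Matn1 and Chad, low on all arrays, have no measured spread of either kind. Comp and Sp7 reached the floor in 1 and 2 lines, too few to set one spread against the other. In probe set 1451538_at pair 9515 was not the highest, as for Acan, but the lowest, at 7.58 beside 8.22 in each other pair. A limma F test of the 3 pair numbers, with chromosome stability as a second term, was added after the data had been seen. Acan passed it (adjusted p = 0.0121 by limma) and Sox9 did not (adjusted p = 0.112 by limma), where 497 of 8382 genes (5.93%) passed. Because Acan entered the test through the pair in which it is high, the same test was run on all 12393 genes. There Acan (adjusted p = 0.0106 by limma), Comp (adjusted p = 0.0258) and Sp7 (adjusted p = 0.0377) passed beside 599 genes in all (4.83%), and Sox9, Alpl, Ibsp, Matn1 and Chad did not. Comp and Sp7 are below the floor in 5 and 4 of 6 arrays, so the sizes of their differences are not known well. With 1 line of pair 9515 left out Acan no longer passed, at adjusted p = 0.133 without the unstable and adjusted p = 0.104 without the stable line by limma, and the number of genes passing dropped to 1 in either case. Sox9 passed with the unstable line of pair 9938 left out (adjusted p = 0.0483 by limma) or with both lines of that pair left out (adjusted p = 0.0417). The pairs differ in mutated locus by the labels and in sex by the Xist values. Pair 9515 shared its locus with pair 9938 and its male pattern with pair 10074. Apart from the title numbers, the labels name nothing that separates pair 9515 from pair 9938. A difference between litters or cultures cannot be told apart from these, and no cause was tested.

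Several other genes of cartilage matrix were, like Acan, highest in pair 9515. Of 17 measured genes in that list 8 were tested, and 4 of the 8, Col2a1, Col10a1, Col11a1 and Prg4, passed the pair test, beside 5.93% of all genes tested. These 4 had their highest mean in pair 9515, as had 216 of the 497 genes that passed. Without the filter, which Col2a1 like Acan passed through the 2 lines of pair 9515 and 1 of pair 9938, the same 4 of 17 (23.5%) passed by limma, beside 4.83% of all genes, Col2a1 at adjusted p = 0.0156. Col2a1, the type II collagen gene that defines hyaline cartilage, measured 7.73, 3.47 and 3.20 in unstable lines 9515, 9938 and 10074, against 7.12, 4.47 and 3.05 in the stable lines. Both lines of pair 9515 were thus far over the 4 others and, as for Acan, the stable line of pair 9938 came next. The pair mean of Col2a1 in pair 9515, 7.42, was at least 10.7-fold over the floor (adjusted p = 0.0175 by the limma pair test). Prg4, which encodes the joint lubricant lubricin, had pair means of 8.18, 5.21 and 6.69 in pairs 9515, 9938 and 10074 (adjusted p = 0.00819 by limma). Col11a1, a minor fibrillar collagen of cartilage that fibroblasts make too, had pair means of 11.26, 10.25 and 9.68, and Col10a1, the collagen of hypertrophic cartilage, 5.62, 4.36 and 4.62. By contrast Col9a1, Col9a2, Col9a3, Col11a2, Matn3, Matn4, Hapln1, Cnmd and Epyc were low on all 6 arrays, so several genes of mature cartilage were not detectable in any line.

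**Figure D3:**
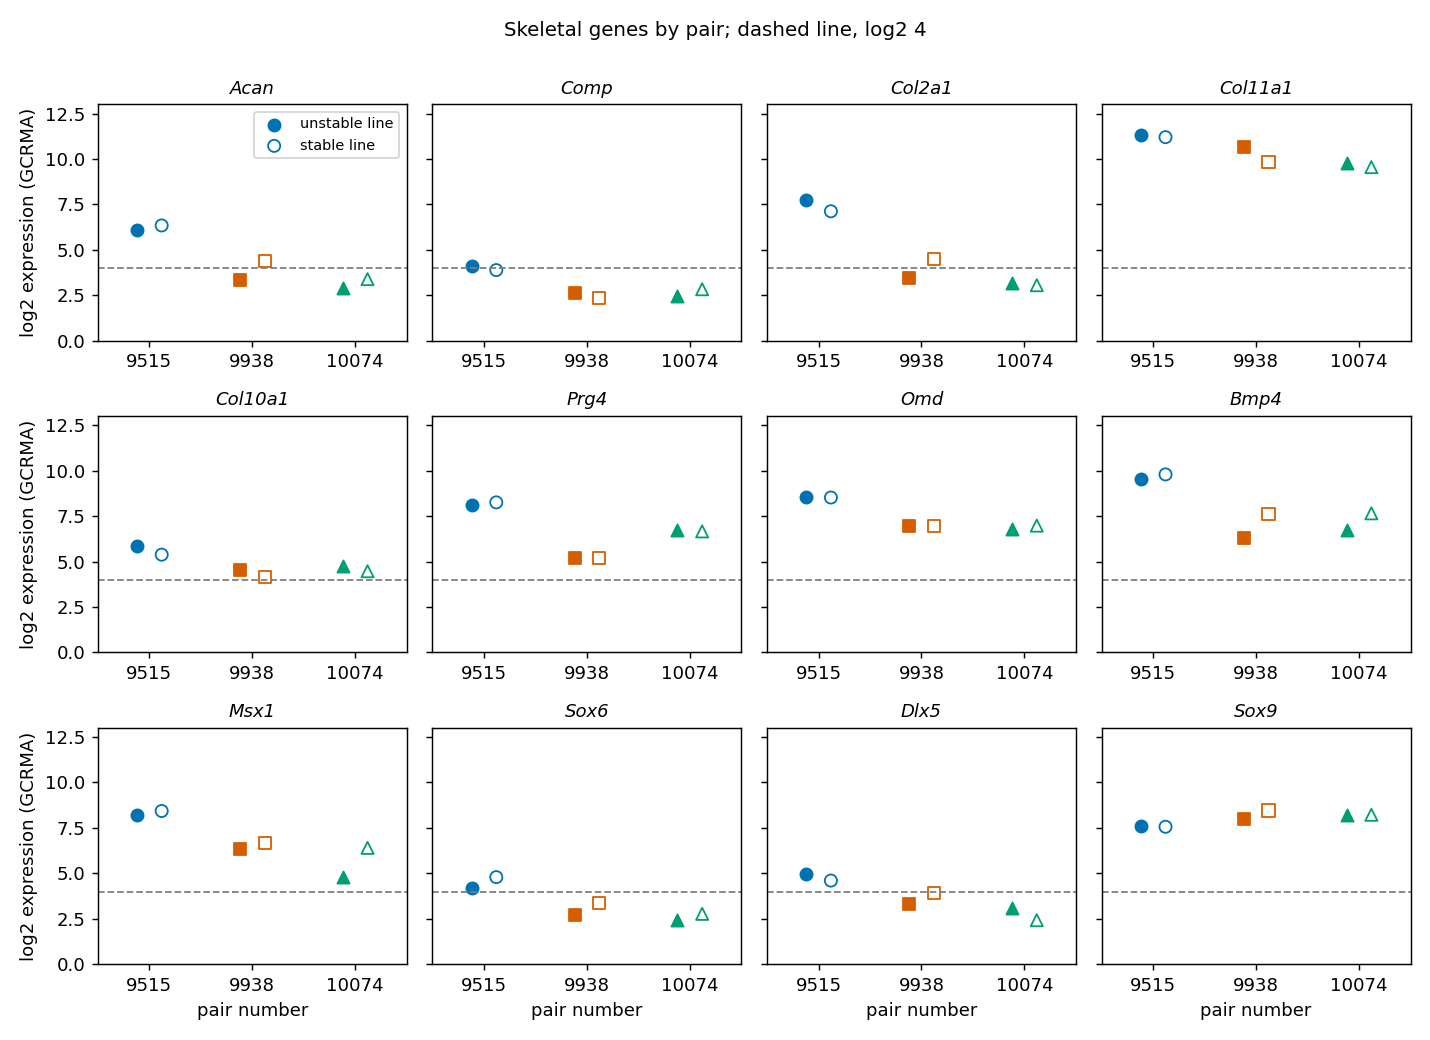
Log2 expression (GCRMA, y axis) of Acan, Comp, Sox9 and 9 genes of the skeletal lists in each pair (x axis), with the unstable line as a filled and the stable line as an open symbol; the dashed line marks log2 4. The first 11 genes have both lines of pair 9515 at the top, whereas in Sox9 both lie at the bottom, at 7.60 in the unstable and 7.56 in the stable line.

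Transcription factors and signalling genes of the skeleton were less uniform. Of 6 transcription factors tested, 2 (33.3%) were highest in pair 9515, 2 in pair 9938 and 2 in pair 10074, where 32.9% of all genes were highest in pair 9515. Of the 6, 2 (33.3%) passed the pair test, beside 5.93% of all genes. Of 13 signalling genes 6 (46.2%) were highest in pair 9515 and 1 (7.69%) passed, near the 5.93% of all genes. Of 8 bone matrix genes 5 (62.5%) were highest in pair 9515 and 2 (25%) passed. Of 7 BMP antagonists and Wnt inhibitors 5 (71.4%) were highest in that pair and 1 (14.3%) passed. Msx1, a homeobox gene of limb and jaw mesenchyme, measured 8.23, 6.37 and 4.82 in unstable lines 9515, 9938 and 10074, against 8.43, 6.68 and 6.40 in the stable lines. Bmp4, a bone morphogenetic protein that induces cartilage and bone, measured 9.53, 6.32 and 6.76 in unstable lines, against 9.80, 7.61 and 7.66 in stable lines. Both genes were highest in the 2 lines of pair 9515 and lower in the unstable line of every pair. They passed the pair test, Msx1 at adjusted p = 0.0395 and Bmp4 at adjusted p = 0.0175 by limma, as did Msx2 (adjusted p = 0.0345), Mgp, an inhibitor of mineralisation (adjusted p = 0.0395), and Omd, the bone keratan sulfate proteoglycan osteomodulin (adjusted p = 0.0121). Frzb, a secreted Wnt inhibitor, was the exception among those that passed, with pair means of 5.74, 6.37 and 6.65 and its lowest in pair 9515 (adjusted p = 0.0484 by limma). Sox6, a partner of Sox9 in cartilage, was over the floor only in pair 9515, at 4.19 in the unstable and 4.79 in the stable line, and so was Dlx5, an osteoblast homeobox gene, at 4.96 in the unstable and 4.60 in the stable line. Sox5 was low throughout.

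Over the 5 skeletal lists together, 73 of 82 genes were measured and 42 tested, of which 10 (23.8%) passed the pair test, beside 5.93% of all genes tested, and 24 (57.1%) had their highest pair mean in pair 9515, beside 32.9%. Of the 10, 9 were highest in pair 9515, beside 216 of the 497 genes that passed among all genes tested. Without the filter 11 of the 73 (15.1%) passed by limma, the 10 and Sox6, beside 4.83% of all genes. The lists were chosen with earlier results of these data known, and the pair test was added after the data had been seen. These shares therefore describe the lists and do not test them. With either line of pair 9515 left out, 0 of the 42 passed by limma. Between unstable and stable lines the same 42 genes had a median difference of -0.005, against -0.009 over all tested genes, with 21 means higher and 21 lower, and 0 passed. The 2 genes with the smallest unadjusted p of each list were Matn2 at 0.42 (SE 0.16) and Prelp at -0.88 (SE 0.49) for cartilage matrix, and Fam20c, a kinase of secreted phosphoproteins, at -0.27 (SE 0.08) and Bmp1 at 0.39 (SE 0.30) for bone matrix. Those of the transcription factors were Twist1 at -0.14 (SE 0.13) and Cbfb at 0.07 (SE 0.10), and those of the signalling genes the parathyroid hormone receptor gene Pth1r at -0.51 (SE 0.28) and Bmpr2 at 0.16 (SE 0.11). Among the BMP and Wnt inhibitors they were Sfrp1 at 0.78 (SE 0.34) and Dkk2 at 0.49 (SE 0.37). All had adjusted p = 0.999 by limma. Only Matn2 and Fam20c had an unadjusted p under 0.05, where 4.28% of all genes did. Fam20c lay at 8.22, 8.25 and 8.17 in unstable lines 9515, 9938 and 10074, against 8.44, 8.52 and 8.48 in the stable lines. The groups did not overlap for Fam20c or Matn2. Of the 42 genes 3 lay wholly higher and 1 wholly lower in unstable lines, beside 3.54% and 6.41% of all genes tested. These counts are too small to be read as a lean either way.

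**Figure D4:**
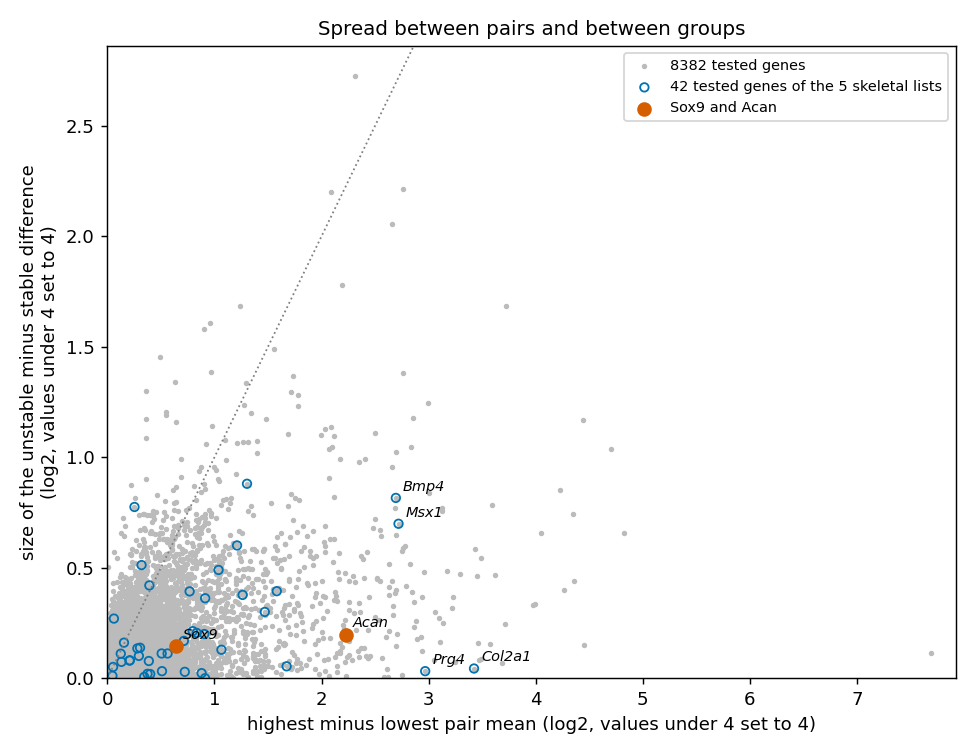
Size of the unstable minus stable difference (log2, y axis) against the gap between the highest and the lowest pair mean (log2, x axis), both with values under log2 4 set to 4, for the 8382 tested genes (grey), the 42 tested genes of the 5 skeletal lists (open circles) and Sox9 and Acan (filled); the dotted line marks equal values. Acan lies at 2.23 on the x axis and 0.20 on the y axis, and Col2a1 at 3.42 and 0.04. The x values of both are lower bounds, since their other pairs hold low values. Their y values are changed by the same step, the differences as measured being -0.58 for Acan and -0.08 for Col2a1.

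The genes whose pattern over the 6 arrays was most like that of Acan were Trps1, a transcriptional repressor with a role in growth plate cartilage, Osbpl11 and the forkhead gene Foxd1, with Pearson r of 0.995, 0.995 and 0.994. Foxd1 measured 7.20, 3.34 and 2.85 in unstable lines 9515, 9938 and 10074, against 6.91, 4.54 and 3.26 in the stable lines. Trps1 measured 8.29, 6.47 and 5.94 in unstable lines, against 8.42, 6.99 and 6.18 in stable lines. In both genes, as in Acan, the lines of pair 9515 were the highest and the stable line of pair 9938 came next. Osbpl11 ran only from 10.98 to 11.04, so a high r over these arrays does not mean a wide spread. For Sox9 the 3 most alike genes were Snrpb, Txn2 and Cab39, with r of 0.982, 0.981 and 0.980. These values describe 6 arrays that share their normalization and their pairing.

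Markers of other cells also differed between pairs. The mean level of 19 macrophage markers was 7.25, 9.93 and 8.78 in unstable lines 9515, 9938 and 10074, against 7.40, 9.74 and 9.74 in the stable lines, a range of 7.25 to 9.93 in unstable and 7.40 to 9.74 in stable lines. The lines of pair 9515 were the lowest 2, the reverse of Acan and the same way round as Sox9. Of the 19, 18 were tested and Itgam was low on every array. All 18 had their highest mean in pair 9938, beside 2579 of the 8382 genes tested. Of the 18, 14 (77.8%) passed the pair test, C1qb and Lyz2 included, beside 5.93% of all genes. In RNA of a whole culture, fewer cells of a type and less RNA per cell cannot be told apart. Of 6 osteoclast genes tested, Tnfsf11, which encodes the osteoclast differentiation factor RANKL and is made by mesenchymal cells, passed the pair test (adjusted p = 0.0121 by limma), with pair means of 9.11, 7.88 and 7.51. Ctsk and Tnfrsf11b, of the same list, did not. Of 4 tendon genes tested, 0 passed by the limma pair test, Fmod and Egr1 among them. Of 15 proliferation genes tested, all 15 had a lower mean in unstable than in stable lines, beside 52.1% of all genes tested. Their median difference was -0.16, -0.56 and -0.68 in pairs 9515, 9938 and 10074, and 0 passed the unstable against stable test by limma. Of the 15, 9 lay wholly lower in unstable lines, beside 6.41% of all genes, and 6 were lower with an unadjusted p under 0.05 by limma, beside 2.93%. The highest pair mean of all 15 was in pair 9938, and 1 of them (6.67%), Mcm4, passed the pair test, near the 5.93% of all genes. The part of these other markers in the values of Acan and Sox9 was not tested. Of the remaining marker lists, skeletal muscle had 1 gene tested, smooth muscle 6, endothelium 1 and nerve cells 2, too few for the 0 that passed the limma pair test to be read against the 5.93% of all genes. Epithelium had 1 of 3, Krt8 at adjusted p = 0.0487 by limma, and adipocytes 3 of 4, Pparg, Fabp4 and Lpl, of which Pparg and Fabp4 were highest and Lpl lowest in pair 9515.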

How the data were processed

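The 6 arrays hold 1 fibroblast line each. Per the labels' protocols, RNA was extracted with Trizol and column kits. R 2.15.3 and GCRMA 2.28.0 are named in the submitters' processing notes, and the log2 values deposited by the authors were used as they were. The sources used here do not give the annotation's build. Among 22626 probe sets 20380 had 1 symbol, 691 had several and 1555 were not listed; for 20351 the Entrez identifier was found in the RefSeq table of GRCm38.p6, and 0 symbols changed. Each of 12393 genes was represented by its probe set with the highest mean, and 8382 at log2 4 on at least 3 arrays were tested with limma 3.58.1 in R 4.3.3 (two-sided, Benjamini-Hochberg). An exact permutation test of 3 against 3 lines has 0.1 as its smallest p, so none was used. Deviations from the group means correlated between lines of 1 number, at 0.812, 0.681 and 0.602 for pairs 9515, 9938 and 10074, and lay at -0.673 to 0.153 between other lines, so the title numbers were taken to pair the lines. The members and lists were chosen with earlier results of these data known. All members were named, and of each other skeletal list the 2 genes with the smallest p; of the marker lists the 2 with the highest mean; and 3 genes most like each tested member. Genes named for the pair test, with Sox6, Dlx5, Sox5 and those low on all arrays, were chosen after their values were seen. In 10 simulations on 8382 genes for the unstable against stable comparison, limma without the block recovered 59.2% of 2-fold and 89.2% of 4-fold changes with 0.2 false calls on average, and with the block 97% and 99.8% with 15.8 false calls. The simulated noise was independent and normal, and each planted change was the same in every line, so real changes may be found less often. In the data Bub1b, at -1.45, did not pass, with adjusted p = 0.999 without and 0.265 with the block by limma.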

Additional observations from a re-analysis of the deposited data

Results flagged for a closer look

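For 2 genes both BubR1 pairs moved one way and the CDC20 pair the other. The share of all genes with this order of signs was not counted, so the 2 are not read as a difference between the loci. The unstable minus stable difference of Comp was 0.243 in pair 9515, 0.239 in pair 9938 and -0.354 in pair 10074. Chad differed by -0.018, -0.079 and 0.093 in pairs 9515, 9938 and 10074. When all 12393 genes were tested, low ones included, the BubR1 minus CDC20 difference was 0.59 (SE 1.38) for Comp and -0.14 (SE 0.17) for Chad, each with adjusted p = 1 by limma. Of the Comp values 5 of 6 are low, and all 6 Chad values are. Groups of 3 lines are too small for a search for outlying lines.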

How the results depend on the processing

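No gene passed in the unstable against stable, BubR1 or BubR1 minus CDC20 comparisons under any alternative run by limma: no filter, a filter at log2 6, the mean of probe sets, each probe set alone, quantile normalization, an intensity trend with a robust prior, the replicate block and, for the first comparison, leaving out each line or pair. Acan did not pass the filter at log2 6. With the replicate block the unstable minus stable differences of -0.14 for Sox9 and -0.58 for Acan had SE 0.13 and 0.17, with adjusted p = 0.701 and adjusted p = 0.325 by limma, and the block changed no call. Leaving out lines or pairs gave -0.40 to 0.043 for Sox9 and -1.58 to 0.24 for Acan. The BubR1 minus CDC20 difference of Sox9 was 0.079 with the mean of its 2 probe sets. Probe set 1424950_at, nearer the floor, had unstable minus stable differences of 0.262, -0.343 and -0.411 in pairs 9515, 9938 and 10074. Averaging it in turned the sign. For the pair test, 953 genes and 17 of the 42 skeletal genes passed with the intensity trend and robust prior. With lines or pairs left out, 1 to 630 genes and 0 to 12 skeletal genes passed, and adjusted p ran from 0.00359 to 0.209 for Acan and from 0.0417 to 1 for Sox9 by limma. Acan did not pass without either or both lines of pair 9515 (adjusted p = 0.133 without the unstable, 0.104 without the stable and 0.209 without both), and Sox9 passed with the unstable line (adjusted p = 0.0483) or both lines (adjusted p = 0.0417) of pair 9938 left out. Signal over background limits Alpl, Ibsp, Matn1 and Chad, which were low on all arrays.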
